A study of Mus musculus with 8 samples.

Results

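Bile acid synthesis was followed through 9 enzyme genes, Cyp7a1, Cyp8b1, Cyp27a1, Cyp7b1, Akr1d1, Hsd3b7, Amacr, Slc27a5 and Baat, taken by their symbols from a table of 16337 genes. All 9 had a row, and all 9 passed the filter on low values, with at least 1 FPKM (fragments mapped to a gene, scaled by its length and by the library's mapped fragments) in 6 to 8 of the 8 libraries. The libraries came from hepatocytes, the parenchymal cells of the liver, prepared by collagenase digestion from male mice 4 weeks old. The 4 groups, with 2 libraries each, were C57BL/6 wild type given olive oil, C57BL/6 given carbon tetrachloride (CCl4, a solvent that injures the liver) as a 12.5% mixture in olive oil, Hamp-/- given olive oil, and Hamp-/- given the same CCl4 mixture, all for 24 h. Hamp encodes hepcidin, the hormone with which the liver limits iron release into the blood, and by the study's title the question was how hepcidin bears on hepatocyte apoptosis through the kinase PERK. The stated design had 6 mice a group, the labels do not say which or how many mice went into a library, and the way the Hamp allele was made and the CCl4 volume are not in the labels, so p-values here measure the spread between 2 libraries that may be technical.

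Bile acids are made from cholesterol in hepatocytes and are the main route by which the body disposes of it. The classical pathway starts with Cyp7a1, the rate-limiting cholesterol hydroxylase, and Cyp8b1 then steers the product towards cholic acid. The alternative pathway starts with the mitochondrial hydroxylase Cyp27a1, and Cyp7b1 hydroxylates the resulting oxysterols. Both pathways share Hsd3b7 and Akr1d1, which reshape the sterol ring, and Amacr, a peroxisomal racemase needed to shorten the side chain. Slc27a5 activates the finished bile acid with coenzyme A and Baat joins it to taurine or glycine. Bile acids repress their own synthesis through the receptor FXR (gene Nr1h4), its target SHP (gene Nr0b2) and, from the gut, an FGF hormone read by Fgfr4 and Klb, while HNF4A and LRH-1 (gene Nr5a2) activate Cyp7a1 and Cyp8b1.

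Across libraries, 8867 to 9384 genes reached 1 FPKM. The depth of sequencing is unknown. Hamp itself was listed at 1136 to 1826 FPKM in the 4 wild-type libraries and at 0.54 to 2.72 FPKM in the 4 knockout libraries. The SD over genes of the log2 difference between the 2 libraries of a group was 0.123 and 0.126 in the wild-type groups and 0.298 and 0.323 in the knockout groups, so the knockout libraries repeated each other less closely. The 2 libraries of a group are called library 1 and library 2 by their labelled replicate number. The 9 hepatocyte markers with a row, among them Alb, Ttr and Apoa1, were all above 1 FPKM in every library and held 8.40% to 14.2% of summed FPKM.

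In the fit over all 8 libraries, 4 of the 9 enzyme genes were called lower after CCl4 in wild-type hepatocytes and 0 higher. With only the 4 wild-type libraries fitted, 4180 genes and 8 members were called, and Cyp7a1, Hsd3b7 and Amacr were then higher (0.25, 0.14 and 0.30). In knockout hepatocytes 8 fell and 1 rose, and after CCl4 all 9 were lower in the knockout than in the wild type. Changes are differences of mean log2(FPKM + 1), which understate the change of low genes, values after ± are standard errors of the fit unless marked SD, and a change was called at a Benjamini-Hochberg adjusted p under 0.05 in limma's test over 10082 genes. For wild-type CCl4 against oil, the 4 lower and 0 higher members compare with 5.61% lower and 10.2% higher among all tested genes, and the members' median of -0.31 with 0.04. For knockout CCl4 against oil, the 8 lower and 1 higher compare with 27.4% lower and 27.9% higher, and the median of -2.20 with -0.03. For knockout against wild type under oil, 3 members were lower and 1 higher, against 11.0% lower and 22.4% higher, with a median of 0.09 against 0.05. For knockout against wild type after CCl4, 9 were lower and 0 higher, against 27.5% and 29.6%, with a median of -2.34 against -0.02. For the interaction, which is the knockout response to CCl4 minus the wild-type response, 7 were below and 2 above zero, against 19.0% and 14.3%, with a median of -2.11 against -0.09. These comparisons share libraries and are not independent of each other. Among all genes called, the share that was higher moved under quantile normalization from 64.4% to 51.8% for wild-type CCl4, from 67% to 56.4% for genotype under oil and from 42.8% to 53.1% for the interaction, and the members' counts in each direction did not change under it. That scaling moved the median of all genes in the interaction from -0.089 to 0.015.

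**Figure D1:**
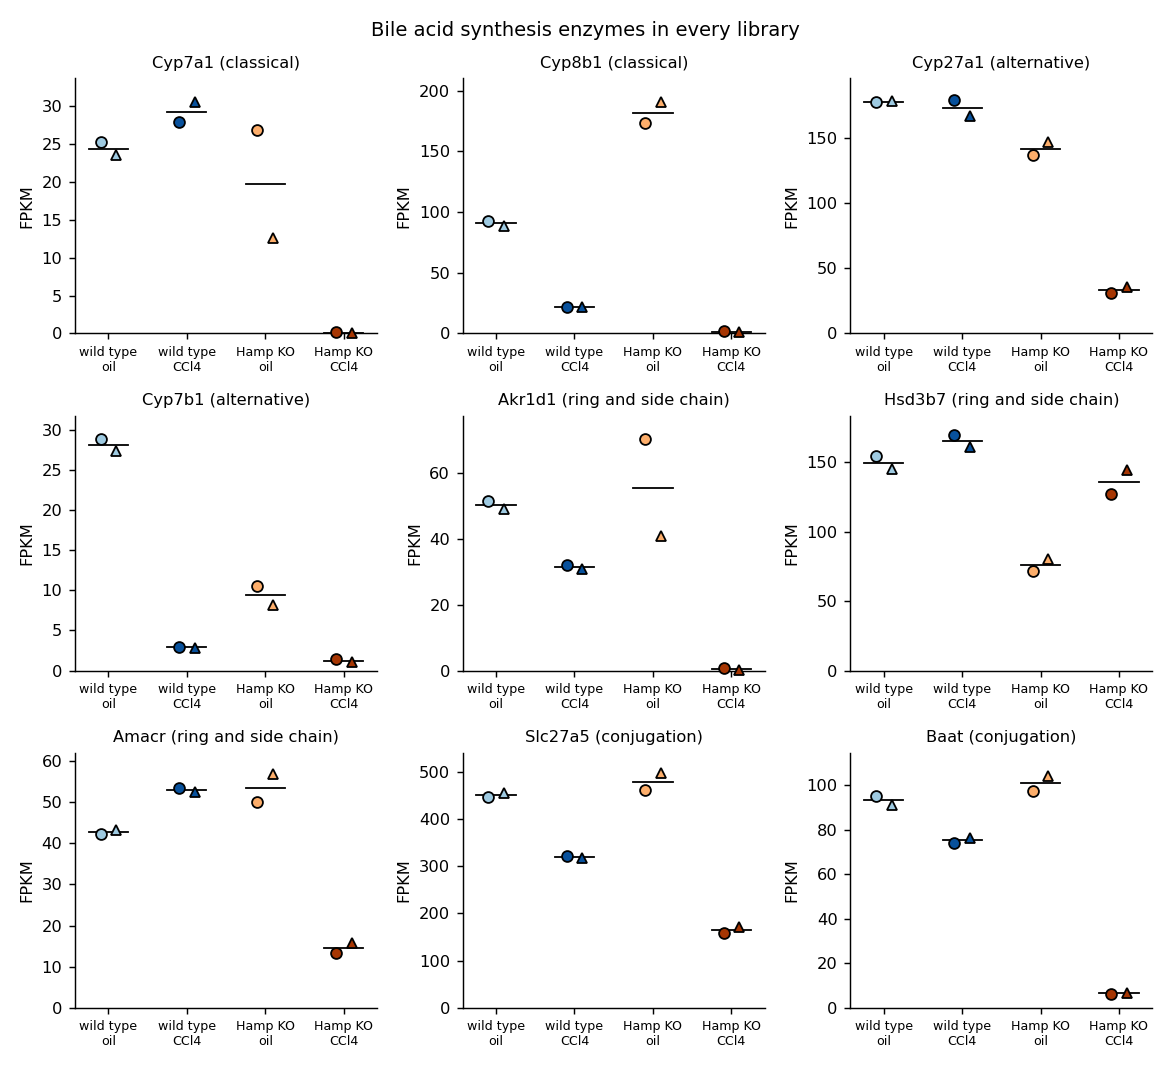
FPKM (y axis, linear, from 0) of each of the 9 enzyme genes in the 4 groups (x axis), with library 1 as a circle, library 2 as a triangle and the mean of both as a line. Knockout CCl4 libraries lie lowest for 8 of the 9 genes, and for Hsd3b7 the knockout oil libraries do, at 71.7 and 80.2 FPKM.

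The transcripts of both classical-pathway genes were at their lowest in knockout hepatocytes after CCl4, and enzyme activity was not measured. Cyp7a1 was listed at 25.3 and 23.5 FPKM in the wild-type oil libraries, 27.9 and 30.5 in wild-type CCl4, 26.9 and 12.6 in knockout oil, and 0.15 and 0 in knockout CCl4. The 2 knockout CCl4 libraries were far below the other 6, and the knockout oil libraries differed from each other by more than the wild-type groups did. In the wild type the change with CCl4 was 0.25 ± 0.30 (95% interval -0.47 to 0.97, adjusted p = 0.683), although both CCl4 libraries were above both oil libraries. It passed the test when only the 4 wild-type libraries were fitted (adjusted p = 0.0162). In the knockout Cyp7a1 fell by 4.18 (SE 0.30, adjusted p = 5.54e-05), or by 6.87 with a pseudocount of 0.1, and since 1 library is listed at 0 no fold is given. The genotype difference under oil, -0.38 ± 0.30 (95% interval -1.11 to 0.34, adjusted p = 0.371), turned on 1 library. It was -0.90 (adjusted p = 0.00588) without library 1 of the knockout oil group and 0.13 (adjusted p = 0.528) without library 2. After CCl4 the knockout differed from the wild type by -4.82 ± 0.30 (adjusted p = 3.84e-05), or -7.53 with a pseudocount of 0.1. The responses of the genotypes differed by -4.43 ± 0.43 (adjusted p = 0.000514), or -7.13 with that pseudocount.

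Cyp8b1 fell with CCl4 in both genotypes, and it was the only member that was higher in the knockout than in the wild type under oil by the test. It was at 92.5 and 88.7 FPKM in wild-type oil, 21.6 and 22.2 in wild-type CCl4, 173 and 191 in knockout oil, and 1.92 and 0.99 in knockout CCl4. No 2 groups overlapped. Mean FPKM under oil was 2.01 times as high in the knockout as in the wild type (1.00 ± 0.17, adjusted p = 0.00546). CCl4 took it 4.14-fold lower in the wild type (-2.00 ± 0.17, adjusted p = 0.000613) and 125-fold lower in the knockout (-6.24 ± 0.17, adjusted p = 1.24e-06). The 2 responses differed by -4.24 ± 0.24 (adjusted p = 5.92e-05), and after CCl4 the knockout was 15-fold lower than the wild type (-3.25 ± 0.17, adjusted p = 1.84e-05).

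The promoters of 4 members were in RefSeq's table of windows around gene starts (250 bases before to 50 after, build GRCm38.p6): Cyp8b1, Cyp27a1, Akr1d1 and Hsd3b7. Those of Cyp8b1 and Akr1d1, which fell furthest with CCl4 in the knockout together with Cyp7a1, and of Hsd3b7, the member that rose there, are shown in the direction of transcription. Capitals mark a match to the HNF4A site CAAAGTCCA, the LRH-1 sites CAAGGTCA and CAAGGCCA, the D-box TTATGTAA bound by Dbp, or the HNF1 half-site GTTAAT, searched on both strands, and no motif matches overlapped.
Cyp8b1, chr9:121916256-121916555, minus strand: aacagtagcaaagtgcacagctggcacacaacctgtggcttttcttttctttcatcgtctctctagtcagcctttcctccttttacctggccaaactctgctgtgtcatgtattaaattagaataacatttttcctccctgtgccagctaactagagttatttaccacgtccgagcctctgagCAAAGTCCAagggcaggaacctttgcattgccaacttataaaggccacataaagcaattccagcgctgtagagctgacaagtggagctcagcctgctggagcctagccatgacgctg
Akr1d1, chr6:37529923-37530222, plus strand: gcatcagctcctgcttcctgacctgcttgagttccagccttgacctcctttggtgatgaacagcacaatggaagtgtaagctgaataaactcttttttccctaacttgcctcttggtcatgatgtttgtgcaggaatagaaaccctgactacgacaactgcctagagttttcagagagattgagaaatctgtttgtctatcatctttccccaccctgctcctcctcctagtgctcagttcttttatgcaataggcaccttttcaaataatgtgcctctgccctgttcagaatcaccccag
Hsd3b7, chr7:127800359-127800658, plus strand: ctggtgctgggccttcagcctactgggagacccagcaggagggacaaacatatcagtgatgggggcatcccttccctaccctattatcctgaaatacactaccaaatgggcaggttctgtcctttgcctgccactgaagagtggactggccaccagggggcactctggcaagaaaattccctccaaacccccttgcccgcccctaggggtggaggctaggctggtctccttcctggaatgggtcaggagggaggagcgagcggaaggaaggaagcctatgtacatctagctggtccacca
The Cyp8b1 window held 1 match, the HNF4A site, from base -67 to base -59 before the start, on the strand of the gene. The HNF4A letters were in 0.475% of the 32851 promoters listed there, an LRH-1 site in 3.92%, the D-box in 0.938% and the HNF1 half-site in 7.1%. The windows of Akr1d1, Hsd3b7 and Cyp27a1 held none of these letters. A match is a description of the letters, and binding was not measured in these data. Hnf4a, the gene of the factor named, was at 111 and 109 FPKM in wild-type oil, 124 and 128 in wild-type CCl4, 147 and 150 in knockout oil, and 75.0 and 81.1 in knockout CCl4, where it fell by 0.92 against oil.

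In the alternative pathway Cyp27a1 showed no called change with CCl4 in wild-type hepatocytes, while Cyp7b1 fell in both genotypes. Cyp27a1 was at 178 FPKM in both wild-type oil libraries, 179 and 167 in wild-type CCl4, 137 and 147 in knockout oil, and 30.8 and 35.9 in knockout CCl4. The wild-type groups overlapped (-0.04 ± 0.09, 95% interval -0.26 to 0.18, adjusted p = 0.85). In the knockout it was 4.25-fold lower after CCl4 (-2.06 ± 0.09, adjusted p = 7.31e-06), and the responses differed by -2.02 ± 0.13 (adjusted p = 0.000102). Under oil the knockout was lower by -0.33 ± 0.09 (adjusted p = 0.0353), a call that did not hold with equal library medians (adjusted p = 0.0906) or without any 1 of the 2 wild-type oil (0.155 each), 2 wild-type CCl4 (0.0671 and 0.067) or 2 knockout oil libraries (0.119 and 0.0617, all adjusted p). After CCl4 the knockout was 5.18-fold below the wild type (-2.34 ± 0.09, adjusted p = 5.38e-06).

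Cyp7b1 was at 28.9 and 27.4 FPKM in wild-type oil, 2.97 and 2.83 in wild-type CCl4, 10.5 and 8.21 in knockout oil, and 1.45 and 1.06 in knockout CCl4. It was thus highest in wild-type hepatocytes under oil, and no groups overlapped. CCl4 lowered it 9.7-fold in the wild type (-2.90 ± 0.14, adjusted p = 7.86e-05) and 7.46-fold in the knockout (-2.20 ± 0.14, adjusted p = 3.02e-05). Under oil the knockout was already 3-fold lower (-1.50 ± 0.14, adjusted p = 0.000471), and after CCl4 it was 2.31-fold lower (-0.80 ± 0.14, adjusted p = 0.00305). The difference between the responses, 0.70 ± 0.20 (adjusted p = 0.0335), did not hold with a pseudocount of 0.1 (0.42, adjusted p = 0.244) or with no filter on low values (adjusted p = 0.0559). It also did not hold without any 1 of the 4 wild-type libraries, library 2 of knockout oil or library 1 of knockout CCl4 (adjusted p from 0.0597 to 0.115).

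The 3 genes of the shared ring and side-chain steps went different ways. Akr1d1, the reductase that bends the sterol ring, was at 51.7 and 49.1 FPKM in wild-type oil, 32.0 and 30.7 in wild-type CCl4, 70.3 and 40.9 in knockout oil, and 0.65 and 0.21 in knockout CCl4. Knockout CCl4 libraries were far below all others, and the knockout oil libraries lay on both sides of wild-type oil. In the knockout the mean was 129-fold lower after CCl4 (-5.27 ± 0.25, adjusted p = 1.02e-05), and the response differed from that of the wild type by -4.61 ± 0.36 (adjusted p = 0.000223). After CCl4 the knockout was 73-fold below the wild type (-4.52 ± 0.25, adjusted p = 2.51e-05). The wild-type change of -0.67 ± 0.25 did not pass (95% interval -1.27 to -0.06, adjusted p = 0.136), but it did when only the 4 wild-type libraries were fitted (adjusted p = 2.74e-05) and without either knockout oil library (adjusted p = 0.0339 each). The genotype difference under oil, 0.09 ± 0.25 (95% interval -0.52 to 0.70, adjusted p = 0.808), was -0.29 (adjusted p = 0.273) without library 1 of knockout oil and 0.47 (adjusted p = 0.121) without library 2. Without library 2 of both knockout groups it was 0.47 and passed the test (adjusted p = 0.000744).

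Hsd3b7, the ring dehydrogenase of the shared steps, was the exception among the members. It was at 154 and 145 FPKM in wild-type oil, 170 and 161 in wild-type CCl4, 71.7 and 80.2 in knockout oil, and 127 and 145 in knockout CCl4. Knockout oil libraries were below all others. Under oil the knockout mean was 1.97-fold below the wild type (-0.97 ± 0.09, adjusted p = 0.00058), and with CCl4 it rose 1.79-fold (0.83 ± 0.09, adjusted p = 0.000411). The wild-type change of 0.14 ± 0.09 (95% interval -0.08 to 0.37) did not pass (adjusted p = 0.38), but it did when only the 4 wild-type libraries were fitted (adjusted p = 0.0478). The responses differed by 0.69 ± 0.13 (adjusted p = 0.00897). After CCl4 the remaining genotype difference of -0.28 ± 0.09 had an adjusted p = 0.0392. It was lost without either wild-type oil library (adjusted p = 0.0709 and 0.0708), either wild-type CCl4 library (0.177 and 0.0998) or library 1 of knockout CCl4 (0.131), and with equal library medians (0.18).

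Amacr was at 42.3 and 43.3 FPKM in wild-type oil, 53.5 and 52.4 in wild-type CCl4, 49.98 and 56.9 in knockout oil, and 13.3 and 15.7 in knockout CCl4. The knockout CCl4 libraries were below all others, which lay between 42.3 and 56.9 FPKM. In the knockout it was 3.68-fold lower after CCl4 (-1.81 ± 0.10, adjusted p = 1.88e-05), and the response differed from the wild-type one by -2.11 ± 0.14 (adjusted p = 0.000132). After CCl4 the knockout was 3.65-fold below the wild type (-1.80 ± 0.10, adjusted p = 2.57e-05). The wild-type change of 0.30 ± 0.10 (95% interval 0.05 to 0.54) had an adjusted p = 0.102, and the genotype difference under oil of 0.31 ± 0.10 (95% interval 0.07 to 0.56) an adjusted p = 0.0582. The latter passed without library 1 of knockout oil (adjusted p = 0.0467) and without either knockout CCl4 library (adjusted p = 0.027 and 0.0278), and the former when only the 4 wild-type libraries were fitted (adjusted p = 0.00154).

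Both conjugation genes fell with CCl4 in both genotypes, and further in the knockout. Slc27a5 was the most abundant member in every library, at 446 and 455 FPKM in wild-type oil, 322 and 318 in wild-type CCl4, 461 and 498 in knockout oil, and 158 and 172 in knockout CCl4. Its order of groups was the same as that of Baat, at 95.3 and 91.2, 73.95 and 76.4, 97.3 and 104, and 6.37 and 6.81 FPKM in the same order of groups. Slc27a5 was 1.41-fold lower after CCl4 in the wild type (-0.49 ± 0.07, adjusted p = 0.00588) and 2.91-fold lower in the knockout (-1.54 ± 0.07, adjusted p = 1.02e-05). Baat was 1.24-fold lower in the wild type (-0.31 ± 0.07, adjusted p = 0.0348) and 15.3-fold lower in the knockout (-3.74 ± 0.07, adjusted p = 6.88e-07). The responses of the genotypes differed by -1.04 ± 0.10 for Slc27a5 (adjusted p = 0.000605) and by -3.44 ± 0.10 for Baat (adjusted p = 7.95e-06). Under oil the genotypes differed by 0.09 ± 0.07 for Slc27a5 (95% interval -0.09 to 0.27, adjusted p = 0.394) and by 0.11 ± 0.07 for Baat (95% interval -0.07 to 0.29, adjusted p = 0.298), with no overlap of the libraries in either gene. After CCl4 the knockout was 1.94-fold below the wild type for Slc27a5 (-0.95 ± 0.07, adjusted p = 9.21e-05) and 11.4-fold below it for Baat (-3.33 ± 0.07, adjusted p = 1.12e-06). The wild-type calls rest on all 4 libraries. Without any 1 of them the adjusted p was 0.0559 to 0.0663 for Slc27a5 and 0.147 to 0.23 for Baat, and with equal library medians that of Baat was 0.104.

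**Figure D2:**
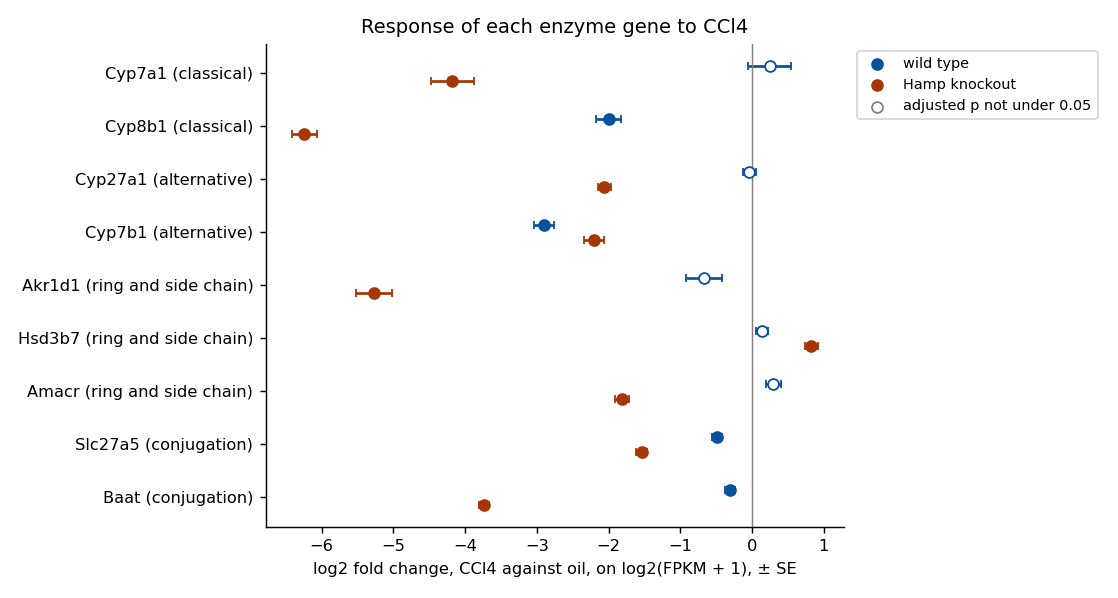
Log2 fold change of each enzyme gene, CCl4 against oil (x axis, on log2(FPKM + 1), bars are standard errors), in wild-type (blue) and Hamp knockout (brown) hepatocytes, with 2 libraries a group and open points where the adjusted p was not under 0.05. The knockout points lie between -6.24 and 0.83 and the wild-type points between -2.90 and 0.30.

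FPKM is per length, so levels can be set side by side between genes. Summed over the 9 genes, levels were 1115 and 1101 FPKM in wild-type oil, 883 and 862 in wild-type CCl4, 1098 and 1139 in knockout oil, and 340 and 377 in knockout CCl4. The sum thus differed little between genotypes under oil, while its parts did. The classical genes made up 10.6% and 10.2% of it in wild-type oil, 5.6% and 6.12% in wild-type CCl4, 18.2% and 17.8% in knockout oil, and 0.609% and 0.262% in knockout CCl4. Cyp8b1 alone was 8.3% and 8.05% of the sum in wild-type oil and 2.44% and 2.57% in wild-type CCl4. In knockout oil Cyp8b1 was 15.8% and 16.7%. Cyp7a1 was 2.27% and 2.14%, 3.16% and 3.54%, and 2.45% and 1.11% in the same order of groups. The share of the conjugation genes stayed between 44.8% and 52.9% in all 8 libraries, but its parts moved. In knockout CCl4 Slc27a5 was 46.4% and 45.5% of the sum and Baat 1.87% and 1.8%. Baat was 8.28% to 9.14% in the other 6 libraries. The share of the ring and side-chain genes was 41.6% and 42.6% in knockout CCl4 against 15.6% to 29% in the other 6 libraries. Hsd3b7 alone was 37.5% and 38.4% in knockout CCl4.

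In wild-type oil the order of levels from high to low was Slc27a5, Cyp27a1, Hsd3b7, Baat, Cyp8b1, Akr1d1, Amacr, Cyp7b1, Cyp7a1, the same in both libraries. Of the neighbours in that order, Baat and Cyp8b1 overlapped over the 2 libraries. In the knockout oil libraries Cyp8b1 stood second, ahead of Cyp27a1, and in the wild-type CCl4 libraries it stood eighth. In the knockout CCl4 libraries Slc27a5 and Hsd3b7 led, and Cyp7a1 was last. The ratio of Cyp8b1 to Cyp7b1 was 3.2 and 3.24 in wild-type oil, 7.26 and 7.84 in wild-type CCl4, 16.5 and 23.2 in knockout oil, and 1.32 and 0.934 in knockout CCl4, so the 4 groups did not overlap. The ratio of Slc27a5 to Baat, the consecutive steps of conjugation, lay between 4.17 and 4.99 in 6 libraries and at 24.8 and 25.2 in knockout CCl4. Exact permutation of 2 against 2 libraries cannot give a p below 0.333, so these ratios were not tested.

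**Figure D3:**
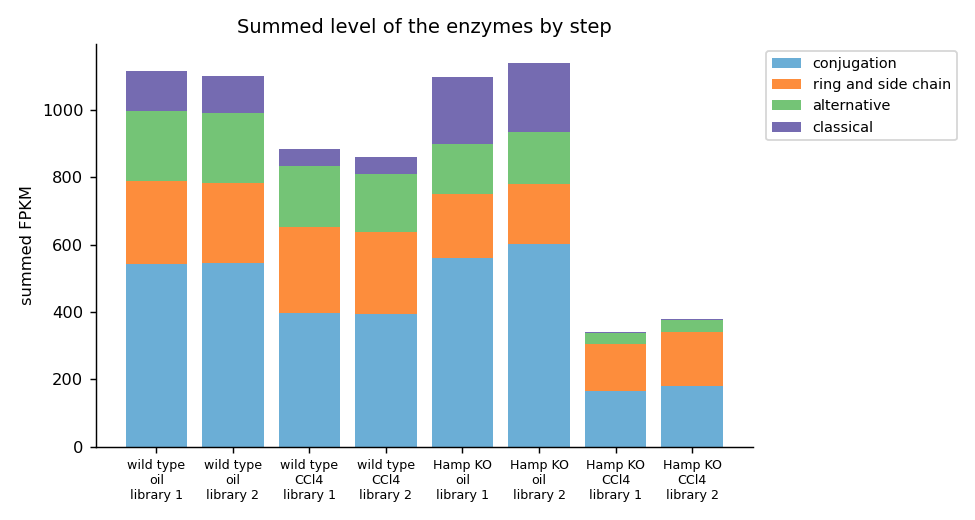
Summed FPKM (y axis, linear, from 0) of the genes of each step, stacked, in each of the 8 libraries (x axis). Totals are 862 to 1139 FPKM in 6 libraries and 340 and 377 FPKM in knockout CCl4, where the classical genes are hardly visible at 2.07 and 0.99 FPKM.

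Other genes of the pathway also fell in the knockout after CCl4. Of the further enzymes and sterol carriers of synthesis, 8 of 11 were tested, and 7 were lower and 1 higher in the knockout with CCl4, against 0 lower and 1 higher in the wild type. For this list and the peroxisomal, electron donor and transporter lists that follow, the shares over all tested genes were 27.4% lower and 27.9% higher in the knockout, and 5.61% lower and 10.2% higher in the wild type. Akr1c6, a hydroxysteroid dehydrogenase gene, was at 265 FPKM in both wild-type oil libraries, 574 and 568 in wild-type CCl4, 455 and 440 in knockout oil, and 98.6 and 86.7 in knockout CCl4. It thus rose in the wild type (1.10 ± 0.08, adjusted p = 0.00028) and fell in the knockout (-2.26 ± 0.08, adjusted p = 2.58e-06). Stard5, a lipid-binding protein gene, fell in the knockout from 44.9 and 47.1 to 6.3 and 5.59 FPKM (-2.76 ± 0.08, adjusted p = 1.66e-06). Cyp2c70, the mouse enzyme that makes muricholic acids, fell there by 1.31 (adjusted p = 1.91e-05), against -0.17 ± 0.07 in the wild type (adjusted p = 0.177). A list of 10 peroxisomal genes held those of side-chain shortening among others. Of these 10, 7 were lower and 1 higher in the knockout, and 1 lower and 1 higher in the wild type. The higher one in both was Ehhadh, a bifunctional beta-oxidation enzyme gene (1.85 ± 0.07 and 0.62 ± 0.07, adjusted p = 4.27e-06 and 0.00219), while the thiolase gene Acaa1b fell in the knockout by 2.31 (adjusted p = 1.06e-05). Acox2, the oxidase that starts the shortening, was lower in the knockout under oil, at 29.1 and 34.3 FPKM against 65.8 and 64.7 (-1.02 ± 0.10, adjusted p = 0.000715). In knockout CCl4 Acox2 was at 24.3 and 28.0 FPKM. Hsd17b4, also on the list, went from 161 and 169 FPKM in knockout oil to 105 and 111 in knockout CCl4.

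The electron donors of the P450 steps were 4 of 5 lower and 0 higher in the knockout with CCl4, and 1 lower and 1 higher in the wild type. Fdxr, the reductase that feeds mitochondrial P450 enzymes such as Cyp27a1, was at 9.2 and 9.63 FPKM in wild-type oil, 4.63 and 4.6 in wild-type CCl4, 5.96 and 5.63 in knockout oil, and 3.44 and 3.62 in knockout CCl4. It fell with CCl4 in both genotypes (-0.89 ± 0.08 and -0.58 ± 0.08, adjusted p = 0.000834 and 0.00114). Of the bile acid transporters, 7 of 8 tested were lower and 0 higher in the knockout with CCl4, and 2 lower and 2 higher in the wild type. Slc10a1, which takes bile acids up from blood, was higher in the knockout under oil, at 594 and 597 FPKM against 295 and 289 (1.03 ± 0.07, adjusted p = 0.000137). Abcb11, the pump that exports bile acids into bile, was at 20.7 and 14.2 FPKM in knockout CCl4 against 66.7 and 51.1 in knockout oil (-1.71 ± 0.19, adjusted p = 0.000353).

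Regulators of synthesis moved little with CCl4 in the wild type and fell widely in the knockout. Of 18 tested, 2 were lower and 0 higher in the wild type, and 14 lower and 2 higher in the knockout, with medians of -0.11 and -1.09. Among all tested genes 5.61% were lower and 10.2% higher in the wild type, and 27.4% lower and 27.9% higher in the knockout. The 2 in the wild type were Cebpa, a factor of mature hepatocytes, and Dbp, a circadian factor (-0.63 ± 0.12 and -0.58 ± 0.15, adjusted p = 0.0137 and 0.0417). Nr1h4, the gene of the bile acid receptor FXR, was at 62.7 and 62.0 FPKM in wild-type oil, 56.8 and 57.5 in wild-type CCl4, 46.7 and 47.2 in knockout oil, and 20.9 and 19.9 in knockout CCl4. It fell in the knockout by 1.16 (SE 0.06, adjusted p = 1.77e-05). Nr0b2, the gene of the repressor SHP, was at 37.7 and 41.8, 38.4 and 32.4, 28.9 and 32.6, and 7.11 and 7.71 FPKM in the same order of groups, and it fell in the knockout by 1.92 (SE 0.11, adjusted p = 2.44e-05). Nr0b2 and the genes it represses, Cyp7a1 and Cyp8b1, were thus lowest in the same 2 libraries. Nr1i3, the gene of the xenobiotic receptor CAR, fell most among the regulators in the knockout (-2.60 ± 0.12, adjusted p = 9.99e-06), followed by Dbp (-2.46 ± 0.15, adjusted p = 2.38e-05). The 2 that rose there, Ppargc1a, a coactivator gene, and Mafg, a repressor of synthesis induced by FXR, are named because the count is small, after their values were seen (1.60 and 0.62). Under oil, 6 of 18 were higher and 5 lower in the knockout, against 22.4% higher and 11.0% lower among all tested genes. Foxo1 and Ppara were among the higher (1.15 ± 0.08 and 1.13 ± 0.11, adjusted p = 0.000139 and 0.00058).

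**Figure D4:**
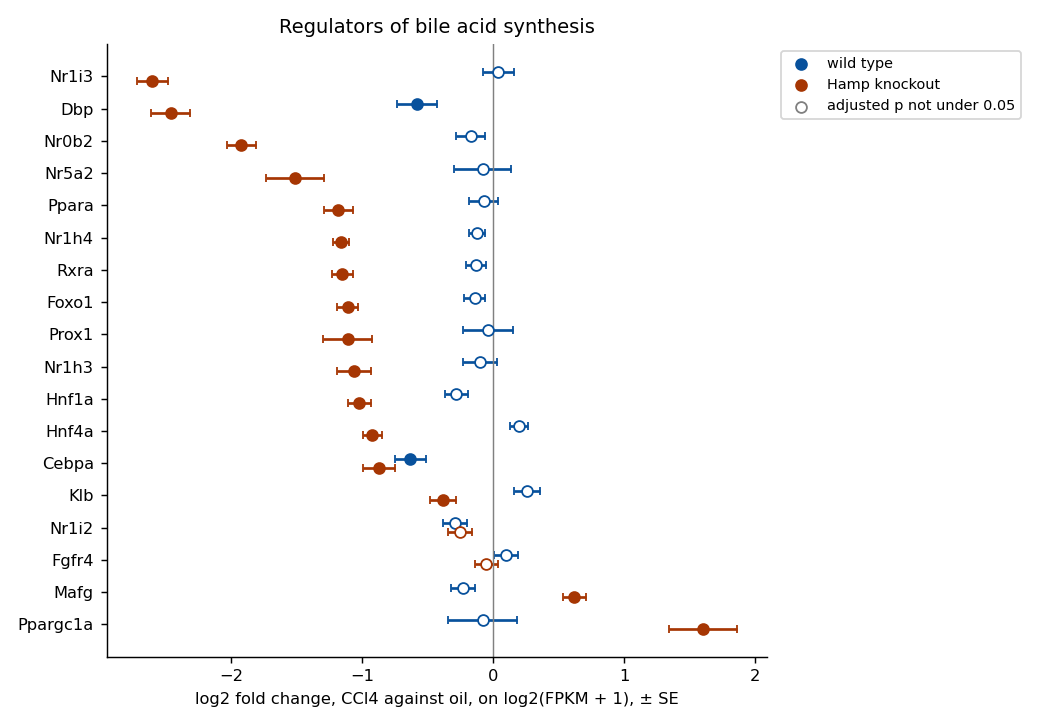
Log2 fold change, CCl4 against oil (x axis, on log2(FPKM + 1), bars are standard errors), of 18 regulators of bile acid synthesis in wild-type (blue) and Hamp knockout (brown) hepatocytes, ordered by the knockout value, with 2 libraries a group and open points where the adjusted p was not under 0.05. In the wild type 2 are filled, and in the knockout 16 are, of which 14 lie below zero.

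Genes that mark position in the lobule and other cell types moved beside these results, and their part in them was not tested. In bulk RNA, fewer cells of a type and less RNA per cell cannot be told apart. Genes of pericentral hepatocytes, around the central vein, where Cyp7a1 is also expressed in mouse liver, summed to 3323 and 3327 FPKM in wild-type oil, 1814 and 1856 in wild-type CCl4, 4052 and 4228 in knockout oil, and 257 and 232 in knockout CCl4. In the knockout 7 of 9 tested were lower after CCl4 and 1 higher, with a median of -2.41, and in the wild type 5 were lower and 3 higher, with a median of -0.31. The shares over all tested genes, here and for the periportal genes below, were 27.4% lower and 27.9% higher in the knockout. They were 5.61% lower and 10.2% higher in the wild type. In the wild type the glutamate transporter gene Slc1a2 and the glutamine synthetase gene Glul fell (-2.03 ± 0.09 and -0.91 ± 0.08), while Cyp1a2 and Rgn rose (0.95 ± 0.07 and 1.16 ± 0.13). Cyp2e1, the enzyme that activates CCl4, was the largest part of the pericentral sum in the wild type and fell in both genotypes. In FPKM its wild-type fall was larger than that of the whole sum. Cyp2e1 went from 2552 and 2557 to 677 and 692 FPKM in the wild type (-1.90 ± 0.24, adjusted p = 0.0028). In the knockout it went from 3031 and 3219 to 49.8 and 27.7 FPKM (-6.36 ± 0.24, adjusted p = 3.51e-06). Genes of periportal hepatocytes summed to 5100 and 5646 FPKM in knockout CCl4 against 6807 and 7499 in knockout oil, with 6 of 10 lower and 3 higher and a median of -0.55. In the wild type they summed to 4625 and 4596 FPKM with CCl4 against 5355 and 5396 with oil. There 4 of the 10 were lower and 0 higher, with a median of -0.19.

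Macrophage markers, 12 genes with none listed at 0, summed to 32.8 and 38.2 FPKM in wild-type oil, 195 and 205 in wild-type CCl4, 324 and 425 in knockout oil, and 546 and 681 in knockout CCl4. All 12 were higher in the knockout under oil and 11 after CCl4, and with CCl4 9 rose in the wild type and 4 rose and 3 fell in the knockout. Over all tested genes, 22.4% were higher and 11.0% lower in the knockout under oil, and 29.6% and 27.5% after CCl4. With CCl4 10.2% were higher and 5.61% lower in the wild type, and 27.9% and 27.4% in the knockout. The macrophage counts in the knockout with CCl4 were near those shares. Endothelial markers, 8 genes with none at 0, summed to 8.57 and 11.3, 8.7 and 9.65, 51.1 and 63.0, and 36.7 and 33.7 FPKM in the same order of groups, and all 8 were higher in the knockout under both treatments. Neutrophil markers, 7 genes with none at 0, summed to 11.7 to 15.0 FPKM in the 4 oil libraries and 49.4 to 68.8 in the 4 CCl4 libraries. With CCl4 5 of the 7 were higher and 0 lower in the wild type, and 6 were higher and 1 lower in the knockout. The lower gene was Ly6g, at 7.53 and 9.25 FPKM in knockout oil against 2.92 and 3.13 in knockout CCl4. In the wild type Ly6g was at 5.68 and 4.13 FPKM with oil and 3.89 and 3.39 with CCl4. The 8 cholangiocyte markers summed to 10.5 and 10.7, 43.5 and 44.7, 17.6 and 12, and 44.9 and 23.5 FPKM in the same order of groups. The 8 stellate cell markers summed to at most 7.35 FPKM, with Lrat between 0.02 and 0.16 and Pdgfrb at 0 in 1 library. Of 9 hepatocyte markers, 1 was lower and 0 higher in the wild type with CCl4. In the knockout 4 were lower and 1 higher, and the medians were 0.12 in the wild type and -0.31 in the knockout. Tat and Hnf4a were among the lower in the knockout (-1.36 ± 0.07 and -0.92 ± 0.07), and Fgb was the higher (0.96 ± 0.07).

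For 1 member of each step, the 3 genes with the most similar profile of log2(FPKM + 1) over the 8 libraries were taken by Pearson's r. These values describe 4 groups of 2 libraries and carry no test. Nearest to Cyp7a1 were Svil, which encodes an actin-binding protein, Tmem30b, a flippase subunit gene, and Fmo5, a monooxygenase gene (r = 0.9963, 0.9961 and 0.9957). Fmo5 was at 194 and 187 FPKM in wild-type oil, 211 and 221 in wild-type CCl4, 188 and 165 in knockout oil, and 40.0 and 35.2 in knockout CCl4, with the same lower library 2 of knockout oil as Cyp7a1. Nearest to Cyp7b1 were C6, a complement gene, Mup11, a urinary protein gene with near-identical copies, and Fdxr (r = 0.9960, 0.9909 and 0.9854). Nearest to Hsd3b7 were Slc35b1, a nucleotide carrier gene, Pinx1, a telomerase inhibitor gene, and Hpx, the gene of the heme-binding plasma protein hemopexin. Hpx was at 13993 and 14102 FPKM in wild-type oil and 4210 and 4941 in knockout oil, the same low point that Hsd3b7 had. Nearest to Baat were Proz, a plasma protein gene, Abcb10, a mitochondrial transporter gene, and Cd59a, a complement inhibitor gene, with Proz at 149 and 142, 120 and 128, 147 and 155, and 25.5 and 25.4 FPKM in the order of groups above.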

How the data were processed

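Gene levels were deposited by the authors as FPKM per gene and library, 1 table of 16337 named genes and 8 libraries, and 1 further row without a gene (0.000117% of FPKM) was left out. Per the submitters' processing notes the genome build was mm8, while the sources used here name no aligner, counting tool or strand setting. Low values showed no steps of whole reads, so depth is unknown and no count test was possible. Levels were taken as log2(FPKM + 1) and fitted with limma 3.58.1 (R 4.3.3, trended prior, 4 residual and 2.61 prior degrees of freedom) over all 8 libraries and 10082 genes that reached 1 FPKM in 2 or more libraries, which left out 6255 genes. The contrasts were tested with Benjamini-Hochberg adjustment over all tested genes. The fit was also run on simulated data with independent noise of equal spread in all groups. The knockout pairs here were wider apart than the wild-type pairs, so that run does not check the calls. Figures were drawn with matplotlib 3.10.9 (Python 3.11.15).

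The 9 members and all gene lists were chosen with earlier results of these data known, and no p is adjusted over a list alone. Named genes were all members, up to 4 tested genes with the smallest adjusted p in each other list and comparison, the 3 genes most like Cyp7a1, Cyp7b1, Hsd3b7 and Baat, and Hamp. Lrat, Pdgfrb, Ppargc1a and Mafg fall outside that rule and were chosen after their values were seen, and Alb is named as a listed marker without a value of its own. Promoter sequences and coordinates are RefSeq's on GRCm38.p6, and no coordinate on mm8 is used. Of the members, Cyp7b1, Akr1d1 and Baat overlap annotated noncoding genes or a pseudogene that have no row in the table. Alternatives tried were other scalings, filters, pseudocounts, thresholds, library subsets, library weights and replicate blocks.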

Additional observations from a re-analysis of the deposited data

Results flagged for a closer look

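The response to CCl4 differed between Hamp knockout and wild-type hepatocytes for all 9 enzyme genes in the test of the difference itself (limma, adjusted p under 0.05), where 19.0% of all tested genes were below and 14.3% above zero. On log2(FPKM + 1), the knockout response minus the wild-type response was -4.61 for Akr1d1, -4.43 for Cyp7a1 (-7.13 with a pseudocount of 0.1), -4.24 for Cyp8b1, -3.44 for Baat, -2.11 for Amacr, -2.02 for Cyp27a1 and -1.04 for Slc27a5. It was 0.69 for Hsd3b7, which rose in the knockout, and 0.70 for Cyp7b1, which fell in both genotypes. The Cyp7b1 difference was 0.42 (adjusted p = 0.244) with a pseudocount of 0.1.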

How the results depend on the processing

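Groups of 2 libraries at unknown depth limit precision, and the knockout pairs were wider apart than the wild-type pairs. For CCl4 in the wild type, 1592 genes and 4 members were called, against 3973 and 7 where only knockout libraries had a replicate block, 4180 and 8 with only the 4 libraries compared, 4287 and 7 with library weights by genotype, 4167 and 7 without both knockout replicate 2 libraries, 782 genes at an FDR of 0.01, and 124 and 2 where a change of at least 2-fold was required. For CCl4 in the knockout (5574 genes), library weights gave 3699 and the 2-fold requirement 837. For genotype under oil (3368 genes, 4 members), the counts were 5380 genes with the block in the knockout alone, 5125 without both replicate 2 libraries, 1863 at an FDR of 0.01, and 210 genes and 0 members at 2-fold. After CCl4 (5761 genes) the 2-fold requirement left 640. For the interaction (3355 genes), the same 4 settings gave 5876, 5241, 1844 and 381. Without 1 library at a time, genes called ranged over 596 to 1954, 4677 to 5649, 1650 to 3919, 4015 to 6312 and 2007 to 3892 in the order above, and members over 2 to 5, 9 to 9, 3 to 5, 8 to 9 and 8 to 9.

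Signs turned for genes that had not passed the test: Cyp27a1 with CCl4 in the wild type (0.01 without library 2 of wild-type CCl4, -0.09 without library 1), and under oil Akr1d1 (-0.03 with quantile normalization, -0.29 without library 1 of knockout oil, 0.47 without library 2), Baat (-0.05 with quantile normalization) and Cyp7a1 (0.13 without library 2 of knockout oil, -0.90 without library 1, and 0.13 without both knockout replicate 2 libraries). The cause was not tested. Same-numbered libraries did not deviate together in every pair (r from -0.254 to 0.219, except 0.803 between the knockout groups), so the numbers were not treated as pairs. With a replicate block, 1617, 5727, 3568, 6094 and 3517 genes and 4, 9, 5, 9 and 9 members were called, and the member gained was Amacr under oil (adjusted p = 0.0426). With a block in the knockout alone, Akr1d1 was called under oil (0.39, adjusted p = 0.00415). A crossed block after CCl4, chosen after seeing the data, called 6498 genes and 9 members.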
